A study of Homo sapiens with 16 samples.

Results

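KCNAB2, CDK18 and TNXB are 3 genes whose transcripts rose several-fold in HMC3 cells, a human microglial cell line, after exposure to a ketamine metabolite or to estradiol with a metabolite. They are described here with their close relatives, which are KCNAB1 and KCNAB3 for KCNAB2, CDK16, CDK17 and CDK14 for CDK18, and TNC for TNXB. The 9 genes were taken by symbol from a table of 25370 genes. KCNAB2, CDK18 and TNXB were chosen because of their rise under 2S6S-HNK, E2+2R6R-HNK and E2+2S6S-HNK, so their own differences from vehicle are given as a description and carry no test. The 6 paralogs were taken by family, and whether they shared the rise could be tested.

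RNA-seq libraries were made from 8 conditions with 2 libraries each, 16 in all. The cells received vehicle, 0.1 nM estradiol (E2), or 400 nM of ketamine, of (2R,6R)-hydroxynorketamine (2R6R-HNK) or of (2S,6S)-hydroxynorketamine (2S6S-HNK), and each of the 3 drugs was also given together with 0.1 nM E2 (E2+ketamine, E2+2R6R-HNK and E2+2S6S-HNK). Exposure lasted 24 h in medium without serum and phenol red, after the cells had been kept in serum stripped of steroids and then without serum. The 2 hydroxynorketamines (HNK) are metabolites of ketamine that share 1 formula and differ in the configuration at their stereocentres, and they were set against each other and against ketamine at the same dose. The titles number the libraries of a condition 1 and 2 but do not say whether they came from separate cultures, so the p-values measure the spread between libraries, which may be technical.

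Libraries held 55300614 to 81646165 counts, and all 9 members were among the 16004 genes that passed a filter on low counts. Levels are given as CPM, counts relative to library size after scaling by the trimmed mean of M values (TMM), and differences as log2 fold changes from edgeR with Benjamini-Hochberg adjusted p-values. Of 11 microglial marker genes, 10 had a median under 1 CPM over the 16 libraries and only CD68 had a median above it (17.4 to 23.4 CPM). TREM2 and CSF1R reached 1.30 and 1.04 CPM in their highest library. Most defining markers of the labelled cell type were thus at or near 0 in this line. All 7 comparisons with vehicle used the same 2 vehicle libraries.

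The Kv beta subunits encoded by KCNAB1, KCNAB2 and KCNAB3 are cytoplasmic proteins of the aldo-keto reductase fold that attach to Shaker-type (Kv1) potassium channels, bind NADPH and influence how fast the channels inactivate and how many reach the surface. CDK16, CDK17 and CDK18 are the PCTAIRE kinases and CDK14 is a PFTAIRE kinase, a branch of the cyclin-dependent kinases that is not devoted to driving the cell cycle. Cyclin Y activates CDK14 and CDK16. Tenascins are large glycoproteins of the extracellular matrix. Tenascin-X, the product of TNXB, binds collagen fibrils and its loss causes a form of Ehlers-Danlos syndrome, whereas tenascin-C, the product of TNC, is deposited during development, injury and inflammation.

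The sequence before the transcription start was read for the members to show what kind of promoter each has. RefSeq (GRCh38.p14) gave 19 windows of 250 bases for 8 of the 9 members, several of them for alternative starts of 1 gene, and KCNAB3 had no entry. The 4 windows below are those of KCNAB2 (the first of 4 starts, chr1:5992426-5992675, plus strand), CDK18 (chr1:205504419-205504668, plus strand), TNXB (the first of 2 starts, chr6:32109339-32109588, minus strand) and, as a relative whose transcript moved the other way, CDK17 (chr12:96400440-96400689, minus strand). Capitals mark GGGCGG, the core of a GC box, on either strand.
KCNAB2: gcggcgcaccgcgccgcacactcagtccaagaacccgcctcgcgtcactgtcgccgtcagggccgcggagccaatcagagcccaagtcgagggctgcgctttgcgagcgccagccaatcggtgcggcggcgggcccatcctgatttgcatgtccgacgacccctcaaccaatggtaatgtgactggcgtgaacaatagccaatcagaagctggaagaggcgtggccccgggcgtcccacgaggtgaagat
CDK18: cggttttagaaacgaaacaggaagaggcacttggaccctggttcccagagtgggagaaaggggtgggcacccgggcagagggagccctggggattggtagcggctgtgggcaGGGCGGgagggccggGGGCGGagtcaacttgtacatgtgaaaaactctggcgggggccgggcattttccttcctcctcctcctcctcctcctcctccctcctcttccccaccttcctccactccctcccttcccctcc
TNXB: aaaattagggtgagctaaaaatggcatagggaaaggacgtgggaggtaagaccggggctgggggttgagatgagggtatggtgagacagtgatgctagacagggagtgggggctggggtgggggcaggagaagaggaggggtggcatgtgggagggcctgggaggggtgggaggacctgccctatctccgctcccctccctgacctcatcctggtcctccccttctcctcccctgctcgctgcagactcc
CDK17: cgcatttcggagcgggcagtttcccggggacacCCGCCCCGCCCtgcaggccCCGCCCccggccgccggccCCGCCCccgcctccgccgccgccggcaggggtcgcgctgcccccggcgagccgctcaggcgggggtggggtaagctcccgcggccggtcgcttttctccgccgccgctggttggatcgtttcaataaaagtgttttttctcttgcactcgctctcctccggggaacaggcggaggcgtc
GGGCGG stood in the CDK18 window and, overlapping itself in places, in that of CDK17, and in 42.6% of the 35116 windows of this length over all genes. It was absent from all windows of KCNAB2 and TNXB, and it was present in 5 of the 19 member windows. Neither TTCNNNGAA, the core recognised by STAT factors, nor the palindrome of the consensus estrogen response element, both of which read the same on either strand, occurred in any of the 19 windows, and they stood in 6.57% and 0.0399% of all windows. The GC content was 63.6% to 69.2% in the windows of KCNAB2, 63.6% in CDK18 and 62.0% to 62.8% in TNXB, and it reached 73.6% in CDK17 and was 35.2% to 46.4% in KCNAB1, against a median of 58% over all windows. A match of letters is a description of these windows and no evidence of binding.

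KCNAB2 (GRCh37 chr1:6050987-6161253, plus strand) was a weakly expressed gene in untreated cells. Its level was 1.49 and 1.83 CPM in the vehicle libraries, 2.36 and 3.66 CPM under E2, 3.56 and 3.48 CPM under 2R6R-HNK, 4.07 and 3.94 CPM under E2+ketamine and 5.77 and 4.83 CPM under ketamine. It then stepped up to 9.57 and 9.49 CPM under E2+2S6S-HNK, 11.8 and 11.0 CPM under 2S6S-HNK and 13.7 and 13.9 CPM under E2+2R6R-HNK. In that order each condition lay above the one before it in both libraries, except that E2 and 2R6R-HNK overlapped. As compared to vehicle the log2 fold change was 2.78 (SE 0.137) under 2S6S-HNK, 3.06 (SE 0.133) under E2+2R6R-HNK and 2.52 (SE 0.137) under E2+2S6S-HNK. Behind these values stood 91 to 1022 counts per library. In RNA from a whole culture, a change in the number of cells expressing a gene and a change in RNA per cell cannot be told apart.

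CDK18 (GRCh37 chr1:205473724-205501921, plus strand) followed the same order. Its level was 11.1 and 10.5 CPM with vehicle, 19.5 and 17.8 CPM with E2, 21.9 and 24.9 CPM with 2R6R-HNK, 24.1 and 27.8 CPM with E2+ketamine and 29.1 and 29.4 CPM with ketamine. The 3 conditions that chose the gene gave 49.3 and 45.4 CPM (E2+2S6S-HNK), 58.6 and 57.7 CPM (2S6S-HNK) and 63.1 and 62.9 CPM (E2+2R6R-HNK). The libraries of 2R6R-HNK and E2+ketamine overlapped, and the other neighbours in this order did not. The log2 fold changes against vehicle were 2.43 (SE 0.0647), 2.54 (SE 0.0637) and 2.13 (SE 0.0647) under 2S6S-HNK, E2+2R6R-HNK and E2+2S6S-HNK.

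TNXB (GRCh37 chr6:32008930-32083111, minus strand) again ranked the 8 conditions in this order. It was at 2.58 and 1.95 CPM with vehicle, 3.22 and 3.21 CPM with E2, 3.67 and 3.45 CPM with 2R6R-HNK, 5.18 and 5.51 CPM with E2+ketamine and 4.99 and 6.05 CPM with ketamine, the last 2 conditions overlapping. It reached 10.9 and 11.3 CPM with E2+2S6S-HNK, 11.6 and 12.3 CPM with 2S6S-HNK and 12.4 and 12.7 CPM with E2+2R6R-HNK. The log2 fold changes were 2.39 (SE 0.119), 2.47 (SE 0.117) and 2.29 (SE 0.118) under 2S6S-HNK, E2+2R6R-HNK and E2+2S6S-HNK. A duplicated stretch of the genome holds TNXA, a partial copy of TNXB that was listed at 0 counts in every library, so the TNXB counts are uncertain where uniquely mapped reads could not be told from the copy.

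Rises of 1 or more on the log2 scale, a lower limit than these 3 genes reached, were uncommon in the table but not confined to them. Genes called higher (adjusted p under 0.05) at a log2 fold change of 1 or more made up 5.24% of the genes tested under 2S6S-HNK, 6.1% under E2+2R6R-HNK and 4.18% under E2+2S6S-HNK, and since these contrasts chose the 3 genes, nothing is read from their place among them. Under the other 4 treatments the log2 fold change of KCNAB2 was 0.85 (E2), 1.09 (2R6R-HNK), 1.27 (E2+ketamine) and 1.68 (ketamine), that of CDK18 was 0.79, 1.11, 1.26 and 1.44 in the same order, and that of TNXB was 0.50, 0.65, 1.24 and 1.28. Markers of other cell types also moved. Most of the summed level of 3 astrocyte markers came from ALDH1L1, with AQP4 at 0 in every library and GFAP at 0.23 to 0.63 CPM. That sum was 3.20 to 3.34 CPM with vehicle, 7.54 to 8.91 CPM with 2S6S-HNK, 8.41 to 8.73 CPM with E2+2R6R-HNK and 7.08 to 7.23 CPM with E2+2S6S-HNK. The summed level of 3 oligodendrocyte markers, mostly MBP, was 2.10 to 2.66 CPM with vehicle, 4.53 to 5.02 CPM with 2S6S-HNK, 3.35 to 4.02 CPM with E2+2R6R-HNK and 4.37 to 5.38 CPM with E2+2S6S-HNK. Under ketamine it was 3.72 to 4.08 CPM, which overlapped with E2+2R6R-HNK. The summed level of 4 neuronal markers, nearly all TUBB3, was 106.5 to 107.5 CPM with vehicle and 92.4 to 104.3, 85.4 to 88.0 and 73.1 to 77.7 CPM under 2S6S-HNK, E2+2R6R-HNK and E2+2S6S-HNK. With E2 it was 130.6 to 131.6 CPM and with E2+ketamine 141.2 to 141.6 CPM. Neither the oligodendrocyte nor the neuronal sum ranked the conditions as the 3 genes did. The 6 fibroblast or mesenchymal markers, the most abundant of these groups, had 4749 to 4757 CPM with vehicle, 4853 to 5267 CPM with 2S6S-HNK, 5281 to 5412 CPM with E2+2R6R-HNK, 4260 to 4541 CPM with E2+2S6S-HNK and 6221 to 6265 CPM with E2, and so did not rank the conditions in that way either. The part of these markers in the rise was not tested.

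**Figure D1:**
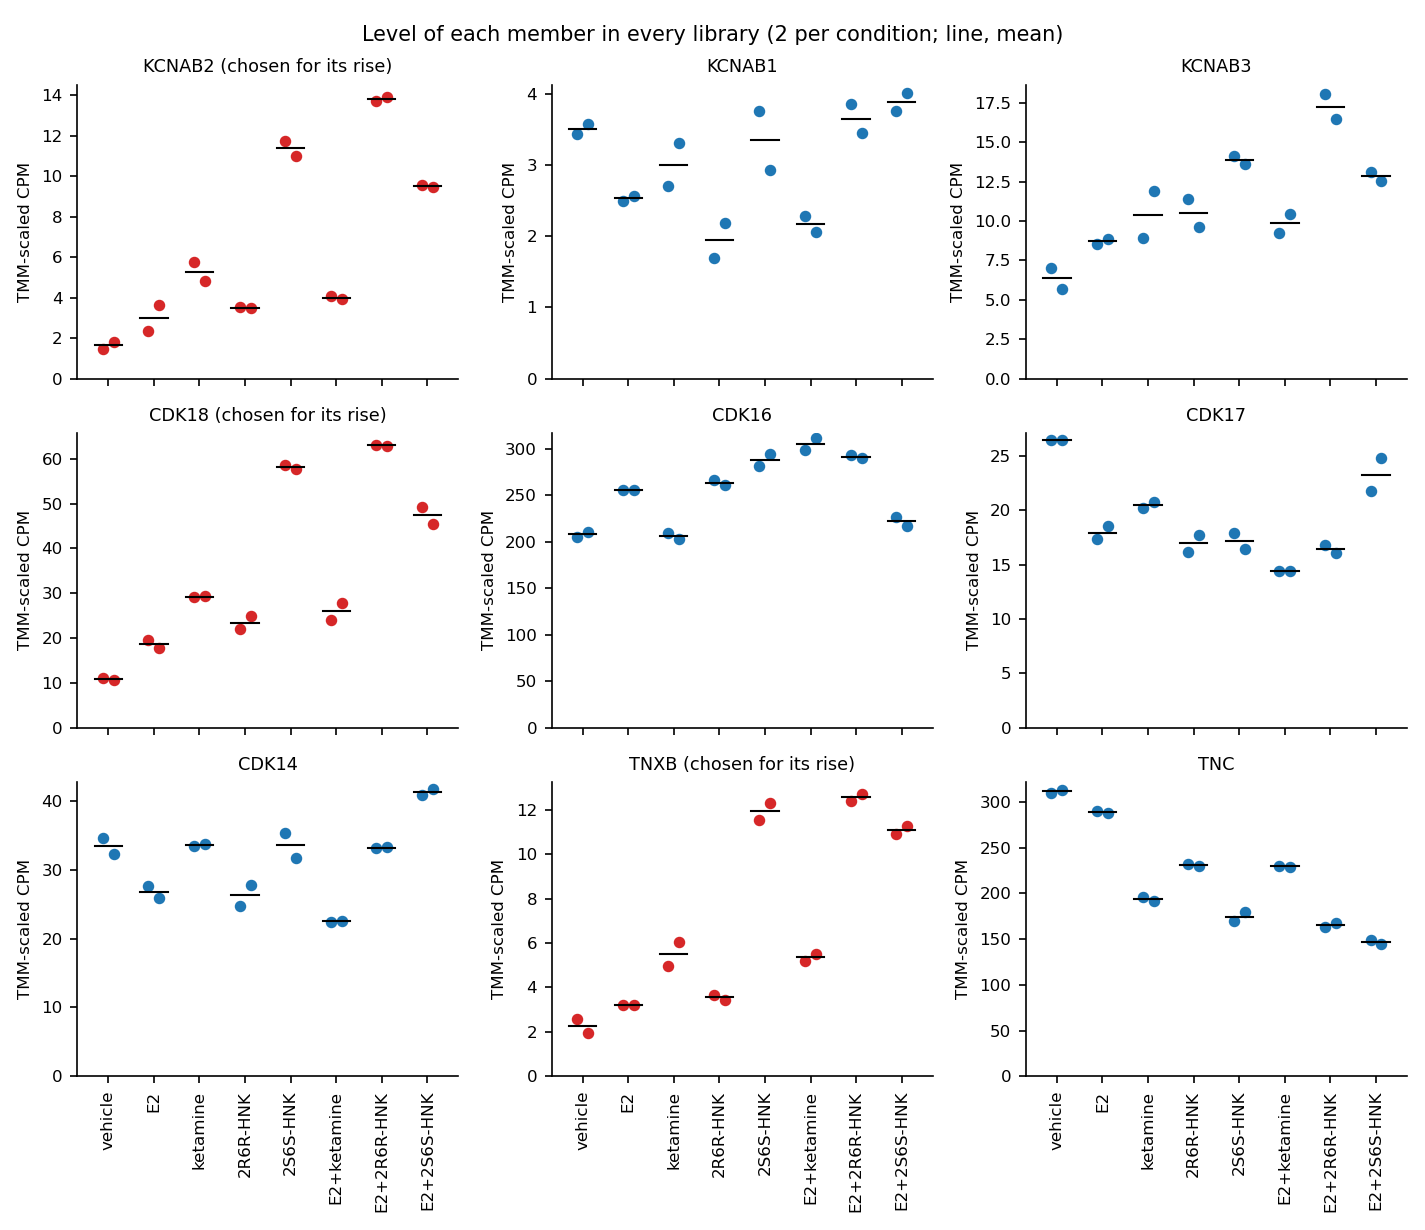
TMM-scaled CPM of the 9 members in each of the 16 libraries, grouped by condition; points are libraries, lines are means of 2, and the 3 genes chosen for their rise are red. KCNAB2, CDK18 and TNXB share 1 order of conditions with the top 3 at E2+2S6S-HNK, 2S6S-HNK and E2+2R6R-HNK; KCNAB3 follows with a smaller rise (5.67 to 18.0 CPM), and TNC falls from 313.4 CPM with vehicle to 144.6 CPM.

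Smaller differences were tested among E2, ketamine, 2R6R-HNK and E2+ketamine, which are not among the conditions that chose the 3 genes. The genes were chosen with earlier results of these data known, so these libraries may not be fully independent of the choice. Ketamine gave higher levels than 2R6R-HNK at the same dose for KCNAB2 (log2 fold change 0.59, SE 0.124, adjusted p = 7.93e-05), for CDK18 (0.33, SE 0.0589, adjusted p = 6.6e-06) and for TNXB (0.63, SE 0.113, adjusted p = 6.66e-06), in a comparison in which 45.4% of all genes were called. When every library was corrected for the GC content and length of the exons, these differences were 0.62, 0.43 and 0.70 and all 3 remained called.

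Adding ketamine to E2 raised CDK18 by 0.47 (SE 0.0637, adjusted p = 1.15e-08) and TNXB by 0.73 (SE 0.122, adjusted p = 1.19e-06) on the log2 scale, against 50.3% of all genes called. KCNAB2 was higher by 0.42 (SE 0.139, adjusted p = 0.0101), but this rested on single libraries. Its value was 0.13 (adjusted p = 0.544) without E2 replicate 1 and 0.77 without E2 replicate 2, 0.39 (adjusted p = 0.0534) without E2+ketamine replicate 1, and 0.25 (adjusted p = 0.168) with the GC and length correction. Under that correction the rise of CDK18 was 0.25 and remained called.

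Adding E2 to ketamine lowered KCNAB2 by 0.40 (SE 0.124, adjusted p = 0.00425) and CDK18 by 0.17 (SE 0.059, adjusted p = 0.0104), and 57.5% of all genes were called. With the GC and length correction these falls were -0.61 and -0.44. Without it, the call of KCNAB2 was lost without ketamine replicate 1 (-0.27, adjusted p = 0.130), and that of CDK18 without E2+ketamine replicate 1 (-0.075, adjusted p = 0.386) and without ketamine replicate 2 (adjusted p = 0.0538). TNXB differed by -0.04 (95% interval -0.26 to 0.17, adjusted p = 0.762), though the correction gave -0.32 (adjusted p = 0.0120).

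In the same 2 comparisons the paralogs went several ways. Against E2 alone, E2+ketamine gave lower TNC (-0.33), CDK17 (-0.31) and CDK14 (-0.25) and higher CDK16 (0.25), and neither KCNAB3 (0.18) nor KCNAB1 (-0.22) was called. Under the GC and length correction CDK17 (-0.10) and CDK14 (-0.050) were no longer called and CDK16 was at 0.11. Against ketamine alone it gave lower CDK14 (-0.58), CDK17 (-0.50) and KCNAB1 (-0.47) and higher CDK16 (0.56) and TNC (0.24), and KCNAB3 was not called (-0.08, 95% interval -0.28 to 0.12), though without ketamine replicate 1 it was called lower (-0.28, adjusted p = 0.0298). The call of KCNAB1 was lost without ketamine replicate 2 (-0.31) and without E2+ketamine replicate 2 (-0.40). With the correction KCNAB1 was not called (-0.20), CDK14 and CDK17 were at -0.27 and -0.19, and KCNAB3 was called lower (-0.28, adjusted p = 0.0129).

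Among the Kv beta subunits KCNAB3 also rose in the conditions that raised KCNAB2, and no rise of KCNAB1 was called there. KCNAB3 (GRCh37 chr17:7825177-7833174, minus strand), the subunit described mainly from brain, was at 7.05 and 5.67 CPM with vehicle, 13.1 and 12.6 CPM with E2+2S6S-HNK, 14.1 and 13.6 CPM with 2S6S-HNK and 18.0 and 16.5 CPM with E2+2R6R-HNK. All 6 libraries of those conditions lay above the vehicle libraries and above all 8 libraries of the other treatments (8.57 to 11.9 CPM). It rose by 1.12 (SE 0.106, adjusted p = 2.05e-13), 1.44 (SE 0.102, adjusted p = 9.49e-18) and 1.01 (SE 0.105, adjusted p = 6.26e-12) on the log2 scale under 2S6S-HNK, E2+2R6R-HNK and E2+2S6S-HNK. These rises passed a log2 fold change of 1, which without vehicle replicate 2 was no longer so for 2S6S-HNK (0.97) and E2+2S6S-HNK (0.86), nor without E2+2S6S-HNK replicate 1 for the latter (0.98). With the GC and length correction the rises were 0.78, 1.06 and 0.83 and remained called. Under E2, ketamine, 2R6R-HNK and E2+ketamine KCNAB3 rose by 0.45, 0.71, 0.73 and 0.63, and the calls under E2 and E2+ketamine were lost with that correction (0.18 and 0.19). The rises under ketamine and 2R6R-HNK were then 0.47 and 0.41 and still called.

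KCNAB1 (GRCh37 chr3:155755490-156256927, plus strand), whose product speeds channel inactivation, lay between 1.70 and 4.01 CPM. It was at 3.43 and 3.57 CPM with vehicle, 3.76 and 2.93 CPM with 2S6S-HNK, 3.85 and 3.45 CPM with E2+2R6R-HNK and 3.75 and 4.01 CPM with E2+2S6S-HNK. The vehicle libraries overlapped with the first 2 of these. The log2 differences were -0.07 (95% interval -0.38 to 0.24), 0.06 (-0.24 to 0.36) and 0.15 (-0.15 to 0.44), and none was called. Once corrected for GC content and length, the value under E2+2R6R-HNK was 0.34 and called. KCNAB1 fell under E2 (-0.47), 2R6R-HNK (-0.87) and E2+ketamine (-0.69), and of these falls those under E2 and E2+ketamine were lost with this correction (-0.20 and -0.24) and that under 2R6R-HNK was -0.53.

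Per kb of annotated exon, KCNAB3 was the most abundant Kv beta transcript in all 16 libraries, with 66.0% to 84.3% of the family's summed CPM per kb. KCNAB2 made up 4.10% and 5.73% of that sum with vehicle and 15.2% and 16.6% with E2+2R6R-HNK. The exon length used for KCNAB2 joins all annotated isoforms (17212 bp), so its share is low if the cells use a short isoform. CDK16 held the same place among the kinases, at 67.0% to 83.6% of the sum over CDK14, CDK16, CDK17 and CDK18, and CDK18 went from 3.85% and 3.62% with vehicle to 14.4% and 13.9% with 2S6S-HNK. TNXB made up 0.50% and 0.37% of the summed TNXB and TNC with vehicle and 4.21% and 4.49% with E2+2S6S-HNK.

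**Figure D2:**
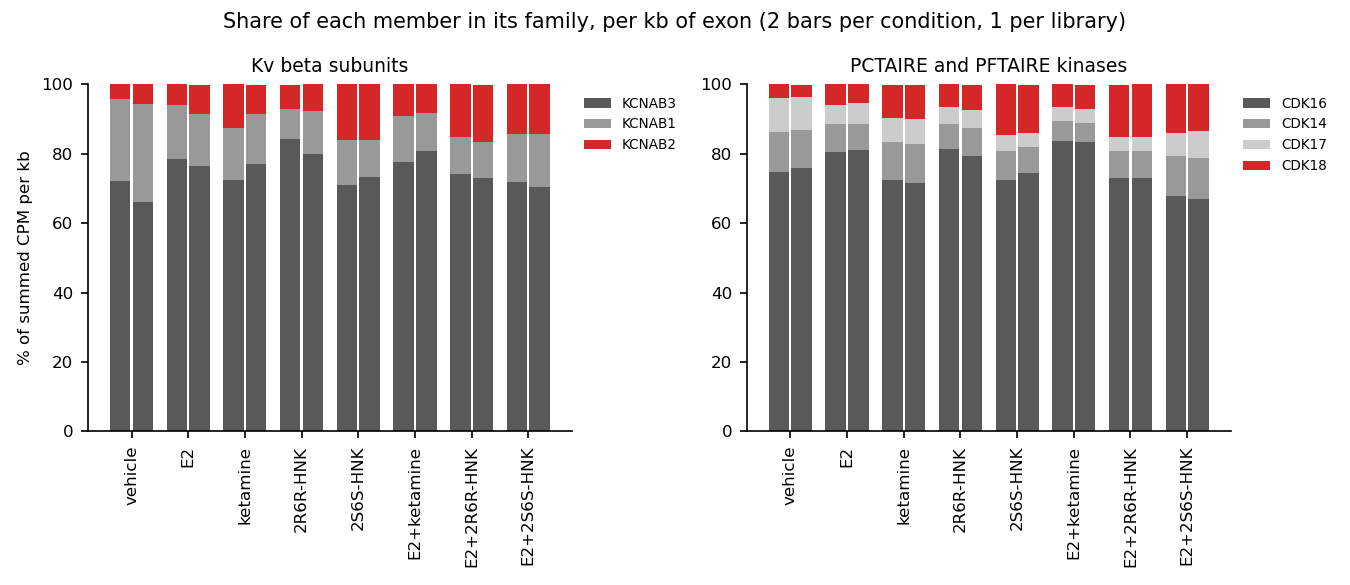
Share of each member in the summed CPM per kb of exon of its family, in percent, with 1 bar per library and 2 bars per condition. The red part, KCNAB2 on the left and CDK18 on the right, is thinnest with vehicle (4.10% and 5.73% for KCNAB2) and widest under 2S6S-HNK and the conditions of E2 with an HNK, while KCNAB3 and CDK16 hold most of their family throughout.

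The kinases related to CDK18 split in direction. CDK16 (GRCh37 chrX:47077259-47089396, plus strand), which is activated by cyclin Y and is needed for spermatogenesis, was at 205.5 and 210.6 CPM with vehicle and at 281.4 and 294.9 CPM with 2S6S-HNK. It rose by 0.47 (SE 0.0283, adjusted p = 2.15e-20) under 2S6S-HNK and 0.49 (SE 0.028) under E2+2R6R-HNK. Under E2+2S6S-HNK it rose by 0.10 (SE 0.0282, adjusted p = 0.00277), a call that was lost without E2+2S6S-HNK replicate 1 (0.064) or vehicle replicate 1 (0.078) and turned to -0.076 with the GC and length correction. That correction also took the rises under 2S6S-HNK and E2+2R6R-HNK down to 0.14 and 0.11. CDK16 was highest under E2+ketamine (298.9 and 311.6 CPM), with a rise of 0.55, and rose by 0.30 under E2 and 0.34 under 2R6R-HNK. Corrected for GC content and length, these rises were 0.13, 0.029 and 0.036, of which only the first was called. Under ketamine CDK16 was not called (-0.0083), but with the correction it was called lower (-0.26).

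CDK17 (GRCh37 chr12:96672039-96794258, minus strand), a kinase expressed mainly in the nervous system, was highest with vehicle at 26.5 and 26.5 CPM. It was at 17.9 and 16.5 CPM with 2S6S-HNK, 16.8 and 16.1 CPM with E2+2R6R-HNK and 21.7 and 24.8 CPM with E2+2S6S-HNK, all below both vehicle libraries. The falls were -0.62 (SE 0.068, adjusted p = 1.59e-11), -0.69 (SE 0.0665, adjusted p = 3.85e-13) and -0.19 (SE 0.0646, adjusted p = 0.0101), and the last was lost without E2+2S6S-HNK replicate 1 (-0.095). None of the 3 remained called with the GC and length correction (-0.093, -0.12 and 0.094). CDK17 also fell under the other 4 treatments, by 0.37 to 0.88, and of these only the fall under E2+ketamine was still called with the correction (-0.17).

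CDK14 (GRCh37 chr7:90095738-90839905, plus strand), which acts with cyclin Y in Wnt signalling at the membrane, was at 34.6 and 32.2 CPM with vehicle and overlapped with this under 2S6S-HNK (35.3 and 31.7 CPM) and E2+2R6R-HNK (33.2 and 33.3 CPM). It stood above vehicle under E2+2S6S-HNK at 40.8 and 41.8 CPM, a rise of 0.30 (SE 0.0548, adjusted p = 3.91e-06) that was 0.53 after correction for GC content and length. The differences under 2S6S-HNK (0.00, 95% interval -0.11 to 0.12) and E2+2R6R-HNK (-0.01, -0.12 to 0.10) were not called, but with the GC and length correction they were 0.44 and 0.43 and called. CDK14 fell under E2 (-0.32), 2R6R-HNK (-0.35) and E2+ketamine (-0.57), and with the correction these values were 0.081, 0.13 and 0.031, the second of them a called rise (adjusted p = 0.0459). Under ketamine it was at 0.01 and not called, and at 0.31 and called with the correction.

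TNC (GRCh37 chr9:117781854-117880486, minus strand) was lower than with vehicle in all 7 treatments, in which TNXB was higher. It was at 309.8 and 313.4 CPM with vehicle, 290.0 and 287.5 CPM with E2, 231.9 and 229.9 CPM with 2R6R-HNK, 230.3 and 228.9 CPM with E2+ketamine and 196.2 and 191.3 CPM with ketamine. The lowest levels were 169.4 and 179.6 CPM with 2S6S-HNK, 163.7 and 167.1 CPM with E2+2R6R-HNK and 149.4 and 144.6 CPM with E2+2S6S-HNK. Each treated library lay below both vehicle libraries. The falls were -0.84 (SE 0.0281, adjusted p = 2.3e-30), -0.91 (SE 0.0279, adjusted p = 2.99e-32) and -1.08 (SE 0.0281, adjusted p = 2.08e-34) under 2S6S-HNK, E2+2R6R-HNK and E2+2S6S-HNK, and with the GC and length correction they were -1.02, -1.14 and -1.16. The fall under E2 was -0.11 and was lost with upper-quartile scaling (-0.046), while the GC and length correction gave -0.26.

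Of the 6 paralogs, 2 were called higher and 2 lower under 2S6S-HNK, where 32.1% and 35.8% of all genes were called in those directions. Under E2+2R6R-HNK these counts were 2 and 2 (33.4% and 36.3% of all genes), and under E2+2S6S-HNK 3 and 2 (24% and 35.7%). With a log2 fold change of 1 or more as a second criterion, 1 of 6 was higher in each of the 3 conditions, KCNAB3 every time. The shares of all genes higher by this criterion were 5.24% under 2S6S-HNK, 6.1% under E2+2R6R-HNK and 4.18% under E2+2S6S-HNK. TNC was lower by it under E2+2S6S-HNK, where 1.67% of all genes were. Under E2, 2R6R-HNK and E2+ketamine 2 paralogs were called higher and 4 lower, and under ketamine 1 and 2. The shares of all genes called higher and lower were 29.9% and 32.7% for E2, 31.7% and 34.9% for 2R6R-HNK, 34.3% and 37.4% for E2+ketamine and 26.8% and 32.5% for ketamine. Under 2S6S-HNK and E2+2R6R-HNK the counts of 2 of 6 were near the shares in the whole table, while 3 of 6 higher under E2+2S6S-HNK and 4 of 6 lower under E2, 2R6R-HNK and E2+ketamine were above them, which was not tested. The 3 under E2+2S6S-HNK include CDK16, and they were 2 to 3 with each library left out and 2 with the GC and length correction. The counts moved with the GC and length correction, which left 4 higher and 1 lower under E2+2R6R-HNK and 0 higher and 1 lower under E2. Under 2S6S-HNK it called KCNAB3 (0.78), CDK14 (0.44) and CDK16 (0.14) higher and TNC (-1.02) lower. The shares of all genes above are from the fit without the correction, so the corrected counts have no share beside them.

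**Figure D3:**
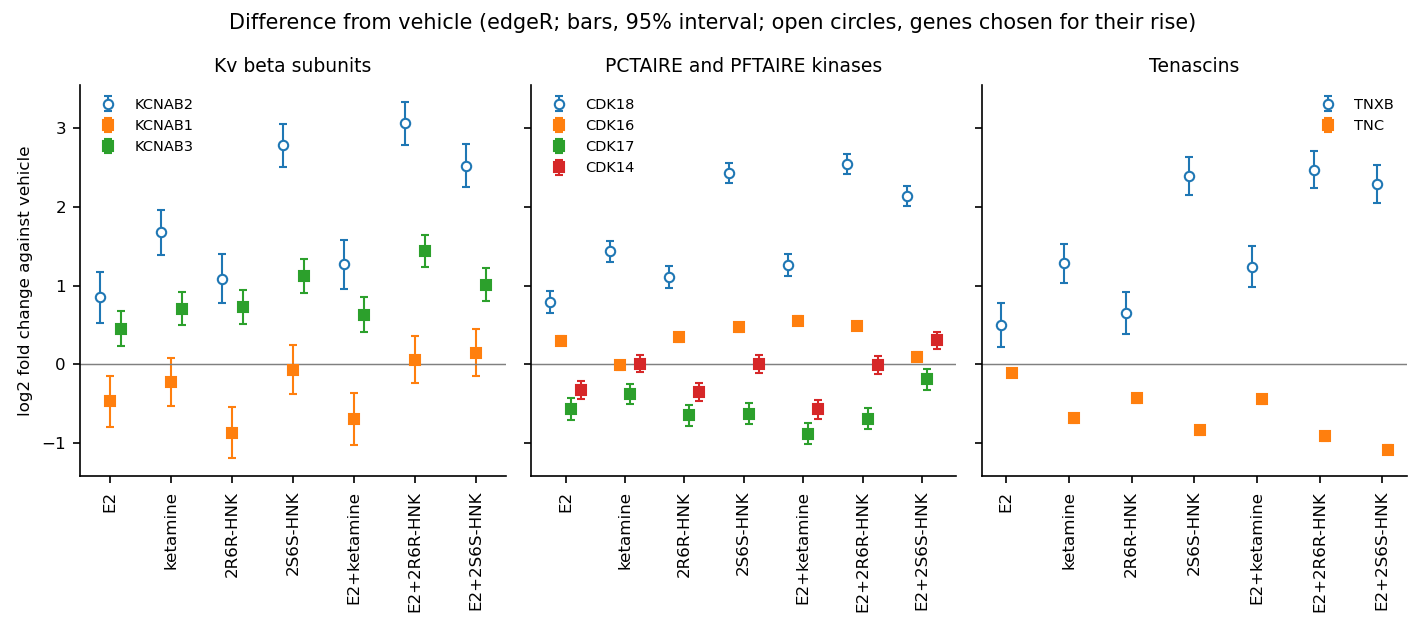
log2 fold change against vehicle of the members of each family under the 7 treatments, from edgeR, with 95% intervals; open circles are the genes chosen for their rise, which carry no test. The 3 chosen genes exceed 2.1 on this scale under 2S6S-HNK, E2+2R6R-HNK and E2+2S6S-HNK, KCNAB3 reaches 1.44, and TNC lies below 0 throughout.

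The stereoisomers differed for most members, and the direction of the difference depended on E2 for several. Without E2, 2S6S-HNK gave higher levels than 2R6R-HNK of KCNAB2, CDK18 and TNXB, by 1.69 (SE 0.119), 1.32 (SE 0.0579) and 1.74 (SE 0.109) on the log2 scale, given without a test. Among the paralogs KCNAB1 (0.80, SE 0.165), KCNAB3 (0.39, SE 0.0986), CDK14 (0.36, SE 0.0575) and CDK16 (0.13, SE 0.0279) were called higher with 2S6S-HNK and TNC was called lower (-0.40, SE 0.0282), with 43.5% of all genes called. The call of KCNAB3 was lost without 2R6R-HNK replicate 2 (0.28, adjusted p = 0.0520). CDK17 was not called, at 0.02 with a 95% interval of -0.12 to 0.16.

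With E2 the order of the stereoisomers was the other way round for KCNAB2 (-0.54, SE 0.103) and CDK18 (-0.41, SE 0.053), and TNXB was at -0.18 (95% interval -0.37 to 0.01), again without a test. The paralogs KCNAB3 (-0.43, SE 0.0924), CDK16 (-0.39, SE 0.0278) and TNC (-0.17, SE 0.0284) were called lower with E2+2S6S-HNK than with E2+2R6R-HNK and CDK17 (0.50, SE 0.0663) and CDK14 (0.31, SE 0.054) higher, where 54% of all genes were called. KCNAB1 was not called (0.09, 95% interval -0.20 to 0.38). With the GC and length correction the differences in TNC (-0.025) and CDK14 (0.10) were no longer called, KCNAB3, CDK16 and CDK17 were at -0.24, -0.18 and 0.22 and still called, and KCNAB2, CDK18 and TNXB stood at -0.24, -0.13 and 0.14.

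**Figure D4:**
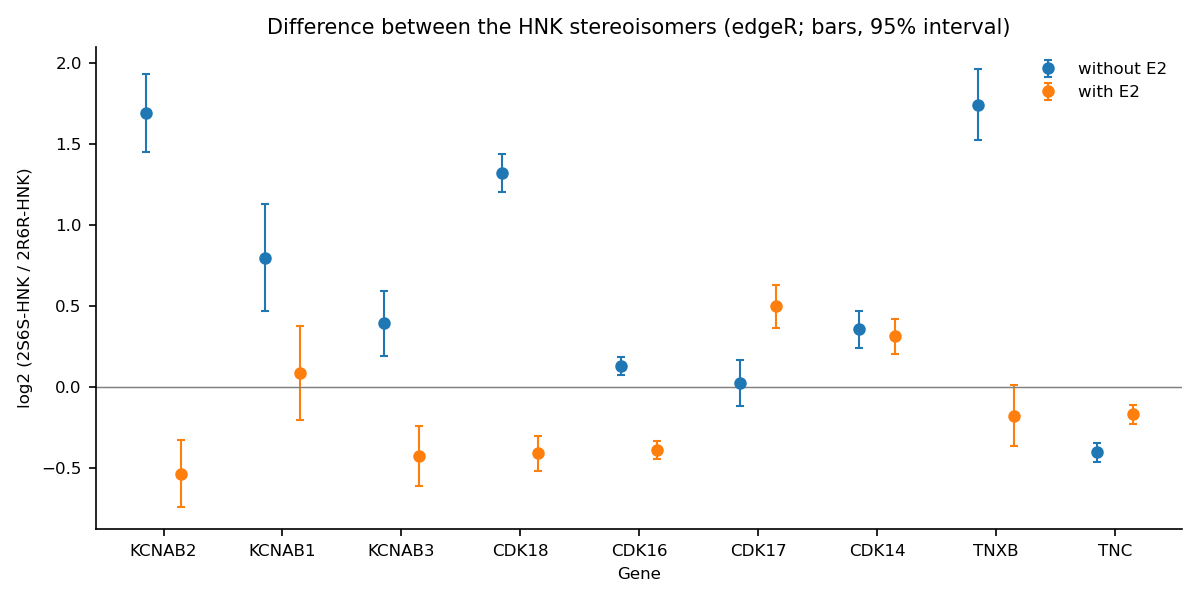
log2 ratio of 2S6S-HNK to 2R6R-HNK for each member at 400 nM, without E2 (blue) and with 0.1 nM E2 (orange), from edgeR, with 95% intervals. The 3 chosen genes lie between 1.32 and 1.74 without E2 and between -0.54 and -0.18 with it, and KCNAB3 and CDK16 also change sign.

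The effect of a drug also depended on E2 for most paralogs. Of the 6 paralogs, 4 had a called interaction with E2 for ketamine, 5 for 2R6R-HNK and 6 for 2S6S-HNK, where 37.5%, 56.6% and 65.1% of all genes were called. CDK17 and CDK16 stood at 1.0 and -0.67 on the log2 scale for 2S6S-HNK, with -0.56 and 0.30 under E2 alone, -0.62 and 0.47 under 2S6S-HNK alone and -0.19 and 0.10 under both. After correction for GC content and length these 2 interactions shrank to 0.26 and -0.24 and were still called, while the values under E2 alone were -0.069 and 0.029 and were not. The shares of all genes above are from the fit without the correction. That correction left 3 of the 6 called interactions for 2S6S-HNK, those of KCNAB3 (-0.13), KCNAB1 (0.26) and CDK14 (0.011) being lost and that of TNC turning from -0.14 to 0.13. For 2R6R-HNK it ended the calls of CDK17 (0.019) and CDK16 (0.044) and added KCNAB3 (0.47).

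The other 4 of the 6 pairs of compounds set ketamine against a stereoisomer. Ketamine gave lower KCNAB2 (-1.10), CDK18 (-0.99) and TNXB (-1.11) than 2S6S-HNK, without a test. The paralogs KCNAB3 (-0.41) and CDK16 (-0.48) were called lower with ketamine than with 2S6S-HNK and CDK17 (0.25) and TNC (0.15) higher, and 46.1% of all genes were called. The call of KCNAB3 was lost without ketamine replicate 1 (-0.21) and that of CDK17 without 2S6S-HNK replicate 2 (0.19) or with the GC and length correction (0.12). Against 2R6R-HNK, ketamine gave higher KCNAB1 (0.64), CDK14 (0.36) and CDK17 (0.27) and lower CDK16 (-0.35) and TNC (-0.25), while KCNAB3 was at -0.02 (95% interval -0.22 to 0.18). The call of KCNAB1 was lost without 2R6R-HNK replicate 1 (0.46). With the correction that of CDK17 was lost (0.097) and CDK14 was at 0.18.

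In the presence of E2, ketamine gave lower levels than either stereoisomer of most members. For KCNAB2, CDK18 and TNXB the log2 differences stood at -1.79, -1.28 and -1.23 against E2+2R6R-HNK and at -1.25, -0.87 and -1.05 against E2+2S6S-HNK, without a test. KCNAB3 (-0.81 and -0.38), KCNAB1 (-0.75 and -0.84), CDK14 (-0.56 and -0.88) and CDK17 (-0.19 and -0.69) were called lower and TNC (0.47 and 0.64) higher in both comparisons, where 52% and 66.8% of all genes were called. CDK16 was higher by 0.46 than with E2+2S6S-HNK and by 0.066 than with E2+2R6R-HNK, and the latter call was lost when any 1 of 9 libraries was left out (0.035 to 0.073 over those). That call was also lost with the GC and length correction (0.026) and with upper-quartile scaling (0.046). The fall of 0.19 in CDK17 against E2+2R6R-HNK was also lost without either E2+ketamine library (both -0.19), without E2+2R6R-HNK replicate 1 (-0.16) and with the GC and length correction (-0.048). Against E2+2S6S-HNK the correction took CDK17 to -0.26, CDK14 to -0.50, KCNAB1 to -0.54, CDK16 to 0.21 and KCNAB3 to -0.64, all still called.

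Over the whole table, differences from vehicle were higher in genes with GC-rich exons. The members' exon GC content was 64.0% in TNXB, 60.2% in CDK18, 58.8% in KCNAB2, 55.1% in KCNAB3, 54.9% in CDK16, 52.0% in TNC, 44% in KCNAB1, 41.6% in CDK14 and 39.0% in CDK17, and the median over the 15325 genes tested with a known GC content was 48.6%. Across all those genes Spearman's rho between GC content and the log2 fold change was 0.45 to 0.77 in the 7 treatments. These correlations are across genes that share their libraries, and the genes are not independent replicates. After the GC and length correction the log2 fold changes under 2S6S-HNK, E2+2R6R-HNK and E2+2S6S-HNK were 2.30, 2.52 and 2.28 for KCNAB2, 1.93, 2.00 and 1.86 for CDK18 and 1.83, 1.83 and 1.97 for TNXB. Under the weaker treatments the correction took a larger part of the value, and TNXB fell from 0.50 to 0.017 under E2 and from 0.65 to 0.15 under 2R6R-HNK. Under E2+ketamine and ketamine the corrected values were 0.53 and 0.85 for TNXB. For E2, 2R6R-HNK, E2+ketamine and ketamine they were 0.47, 0.70, 0.71 and 1.32 in KCNAB2 and 0.39, 0.65, 0.64 and 1.07 in CDK18. The correction removes any change of the cells that follows GC content as well as any of the libraries, and the part of each was not tested. TNC went against this pattern, since its exons are richer in GC than the median and its level fell.

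**Figure D5:**
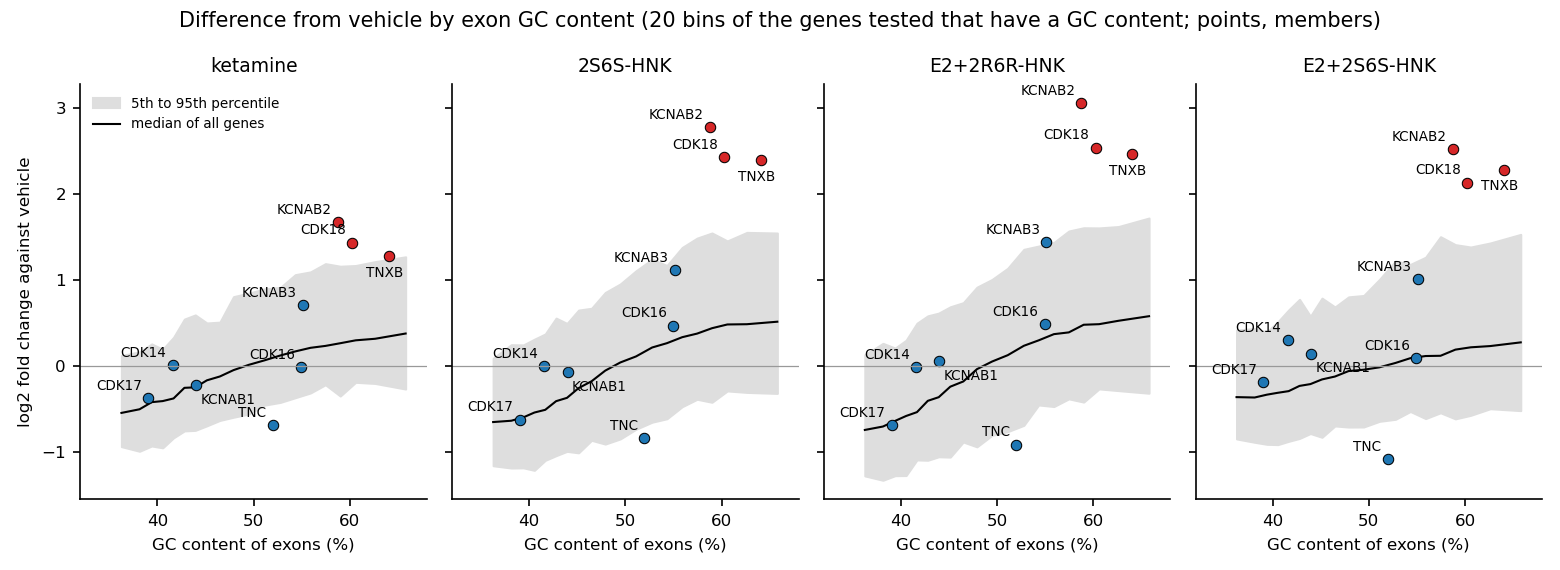
log2 fold change against vehicle by GC content of the exons in percent for 4 treatments; the line and band are the median and the 5th to 95th percentile of 20 bins of all genes tested with a GC content, and the points are the members, with KCNAB2, CDK18 and TNXB in red. The median of all genes rises with GC content, in these 4 (ketamine, 2S6S-HNK, E2+2R6R-HNK and E2+2S6S-HNK) CDK16 and CDK17 lie inside the band and TNC below it, and the place of the red points is set by how they were chosen.

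Partners and more distant relatives of these proteins gave a mixed picture under 2S6S-HNK, where 32.1% of all genes were called higher and 35.8% lower. Both shares are from the fit without the GC and length correction. The corrected counts given below, for all lists, have no share beside them. Of the 8 Kv1 alpha subunits, the channels that Kv beta proteins attach to, only KCNA7 passed the filter and the highest count of any of the others was 12. KCNA7, named after its values were seen, had 5 and 3 counts with vehicle and 15 and 16 with 2S6S-HNK and was called higher, at a level where single counts weigh heavily and where a gene passes the filter through its treated libraries. Of the other voltage-gated potassium alpha subunits 18 of 24 were tested, and 7 were called higher and 2 lower under 2S6S-HNK with a median log2 fold change of 0.50, against -0.03 over all genes tested. KCNG1, a silent modifier subunit, rose by 1.21 and KCND1 by 0.68, and KCNQ5 fell by 1.03. Of 6 aldo-keto reductases tested 4 were called higher and none lower (median 0.44), among them AKR1A1, an aldehyde reductase (0.86), AKR7A2 (0.34) and AKR1B1, aldose reductase (0.077). With the GC and length correction the higher calls fell to 4 of the potassium subunits and 2 of the reductases, KCNG1, KCND1, KCNQ5 and AKR1A1 were at 0.77, 0.30, -0.67 and 0.57, and AKR7A2 and AKR1B1 turned to -0.090 and -0.20.

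Of 18 cyclins and other partners of the PCTAIRE and PFTAIRE kinases, 3 were called higher and 9 lower under 2S6S-HNK (median -0.18). The 14-3-3 genes YWHAQ, YWHAZ and YWHAB, whose products bind phosphorylated kinases, fell by 0.80, 0.69 and 0.58, and CCNA2, a cyclin of S phase and G2, fell by 0.48. With correction for GC content and length CCNA2 was not called (-0.036), and YWHAQ, YWHAZ and YWHAB were at -0.52, -0.41 and -0.16. Of 14 other cyclin-dependent kinases 5 were called higher and 7 lower (median -0.22). CDK6, a kinase of the G1 phase, fell by 0.97, CDK8 by 0.76 and CDK12 by 0.64, and CDK10 rose by 0.72. Corrected in the same way, 2 kinases were higher and 7 lower, and these 4 were at -0.47, -0.42, -0.50 and 0.38.

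Around the tenascins, 3 of the 8 other tenascins and receptors tested were called higher and 4 lower under 2S6S-HNK (median -0.14). The integrin gene ITGB1 fell by 0.73 and ITGAV by 0.54, and ITGA7 and ITGB3 rose by 0.60 and 0.20. After the GC and length correction 3 genes were higher and 1 lower, ITGAV was at 0.028, ITGB1 at -0.31, ITGA7 at 0.27 and ITGB3 at 0.16, and the median of the list turned to 0.096. Of 12 genes of the collagen matrix that tenascin-X binds, 10 were called higher and 1 lower (median 0.42), with FBLN1 at 1.10, COL5A1 at 1.0 and COL6A2 at 0.85, and COL12A1, a collagen on the surface of fibrils, lower at -0.79. With the correction 7 were higher and 2 lower. FBLN1, COL5A1, COL6A2 and COL12A1 were then at 0.67, 0.52, 0.27 and -0.46.

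The genes next to KCNAB2, CDK18 and TNXB showed no called rise of that size where they could be tested. NPHP4, on the opposite strand with 212 bp of exon shared with KCNAB2, was at 0.41, 0.50 and 0.05 on the log2 scale under 2S6S-HNK, E2+2R6R-HNK and E2+2S6S-HNK. CHD5, 594 bp beyond the other end, was not called in any of these 3 (0.05, 0.48 and -0.31). RNF207, further along, rose by 0.64, 0.91 and 0.65, and RPL22 fell by 0.41, 0.44 and 0.068. With the GC and length correction NPHP4 was at -0.058, -0.016 and -0.18 and RNF207 at 0.18, 0.40 and 0.40, of which the first value of RNF207 and the first 2 of NPHP4 were not called, and RPL22 was no longer called under E2+2S6S-HNK (-0.028). Beside CDK18, ELK4 fell by 0.35, 0.48 and 0.20, and SLC45A3 was at 0.23, 0.35 and -0.09. With that correction ELK4 turned to 0.18, 0.079 and 0.10, called only under 2S6S-HNK, and SLC45A3 was at -0.23, -0.14 and -0.34, called only under E2+2S6S-HNK. MFSD4, the nearest gene beyond CDK18, had 4 to 19 counts in any library and stood at -1.59 (SE 0.742, adjusted p = 0.0552), -0.33 and 0.02, none of them called. BLACAT1, the nearest gene on the other side of CDK18, had 0 to 11 counts in any library and was not tested. It was at 0 CPM with vehicle and at 0.18 and 0.14 CPM under 2S6S-HNK. Under E2+2R6R-HNK it was at 0.080 and 0.15 CPM, and under E2+2S6S-HNK at 0.12 and 0.031 CPM. Beside TNXB, ATF6B, which shares 71 bp of exon on the same strand, rose by 0.42, 0.50 and 0.18 (0.049, 0.10 and -0.025 with the correction, called only under E2+2R6R-HNK), and CYP21A2, with 298 bp shared on the opposite strand, had 0 to 8 counts in any library. FKBPL was at 0.16, 0.12 and -0.07 and called only under 2S6S-HNK, and after correction for GC content and length it was at -0.14, -0.21 and -0.24, of which the last 2 were called. PRRT1 was not called (0.32, 0.11 and -0.40), but with the correction it was lower under E2+2S6S-HNK (-0.67, adjusted p = 0.0347). Whether reads were counted by strand is not given in the sources used here, so counts in shared exons cannot be assigned to 1 gene with certainty.

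The profiles of the 3 chosen genes over the 8 condition means were close to each other, with a Pearson correlation of log2 CPM of 0.996 between KCNAB2 and CDK18, 0.987 between KCNAB2 and TNXB and 0.982 between CDK18 and TNXB. KCNAB3 had 0.969 with KCNAB2, KCNAB1 had 0.457, and TNC had -0.943 with TNXB. CDK16 and CDK17 ran against each other (-0.905). Among 12748 genes the 5 most like KCNAB2 were CDK18, EML2, PAN2, PADI2 and IFITM10 (0.991 to 0.996), those most like CDK18 were MAST1, KCNAB2, PADI2, PTP4A3 and SEMA4G (0.993 to 0.996), and those most like TNXB were EXD3, FBLN7, CAMK2N1, LMF1 and CRELD1 (0.991 to 0.996). PADI2, a peptidylarginine deiminase, stood at 1.94, 1.97 and 1.81 against vehicle under 2S6S-HNK, E2+2R6R-HNK and E2+2S6S-HNK. Over the 16 libraries in place of the condition means, 2 of the 5 names remained for each gene. Since KCNAB2, CDK18 and TNXB were chosen for a rise in the same 3 of the 8 conditions, the choice sets how alike they are, and with 8 points that share libraries all these correlations are a description.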

How the data were processed

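RNA was extracted from HMC3 cells and amplified to cDNA with the Ovation RNA-seq system (NuGEN), and 16 libraries were sequenced as paired reads. The authors deposited raw counts per gene, made by aligning reads to hg19 with TopHat and Bowtie and counting uniquely mapped, concordant pairs with featureCounts. The submitters' processing notes name TopHat2 2.0.14, Bowtie2 2.2.6 and featureCounts 1.4.6. Of counts from 1 to 9, 65.8% were even, against 49.9% of counts of 500 or more, and halved counts were therefore an alternative.

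Counts were filtered with filterByExpr, which kept 16004 of 25370 genes, scaled by TMM and fitted with the quasi-likelihood test of edgeR 4.0.16 in R 4.3.3, with 1 mean for each of the 8 conditions (8 residual degrees of freedom). P-values were adjusted by Benjamini-Hochberg over all genes tested in each of 18 comparisons: 7 treatments against vehicle, 3 interactions, 6 pairs of compounds at matched dose, and E2+ketamine against E2 and against ketamine. A gene was called at an adjusted p under 0.05. Interactions were coded as the drug effect with E2 minus the drug effect without it. With 2 libraries per condition no permutation test of a single gene could reach significance, so p-values rest on the fitted model. The fit was also run on counts simulated from that same model. Such a run cannot show whether the model's assumptions hold in these data. Alternatives were DESeq2 1.42.0, other filters and scaling, the 2 or 4 groups compared alone, each library left out, the replicate number as a block, and a loess correction (span 0.5) of each library for exon GC content and length.

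Gene positions and GC content came from GENCODE models on GRCh37. Of the table's symbols, 21531 matched directly, 1435 by an older symbol and 2404 did not, and a GC content was found for 95.8% of tested genes. The members and lists were chosen with earlier results of these data known. Named genes are the members, the 5 genes most like each chosen gene (mean of at least 1 CPM), up to 4 genes per related list with the largest called change under 2S6S-HNK (mean of at least 1 CPM), and the 3 nearest genes on each side. One gene that this rule names is not reported here.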

Additional observations from a re-analysis of the deposited data

Results flagged for a closer look

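For the paralogs the effect of a drug with E2 differed from its effect without E2 in 15 of 18 interactions tested, each at an adjusted p under 0.05 by edgeR's quasi-likelihood test, where 37.5% (ketamine), 56.6% (2R6R-HNK) and 65.1% (2S6S-HNK) of all genes were called. For ketamine the log2 difference of effects was -0.53 in KCNAB3, -0.26 in CDK14, 0.35 in TNC and 0.26 in CDK16. The call of KCNAB3 was lost without ketamine replicate 2 (-0.31) and without vehicle replicate 2 (-0.39), and that of CDK14 without E2 replicate 1 or vehicle replicate 2 (both -0.21).

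For 2R6R-HNK the values were 1.4 in KCNAB1, 0.67 in CDK14, 0.52 in CDK17, -0.37 in TNC and -0.16 in CDK16. For KCNAB1 the log2 fold change against vehicle was -0.87 with 2R6R-HNK, -0.47 with E2 and 0.06 with E2+2R6R-HNK.

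For 2S6S-HNK they were 1 in CDK17, 0.68 in KCNAB1, 0.62 in CDK14, -0.56 in KCNAB3, -0.14 in TNC and -0.67 in CDK16. The call of KCNAB1 was lost without 2S6S-HNK replicate 2 (0.52). With the GC and length correction 11 of the 18 were called. The shares of all genes above are from the fit without it, so this count has no share beside it. Those lost were CDK17 (0.019) and CDK16 (0.044) for 2R6R-HNK and CDK14 (0.011), KCNAB3 (-0.13) and KCNAB1 (0.26) for 2S6S-HNK, and TNC turned to 0.13 for 2S6S-HNK. CDK17 and CDK16 stood at 0.26 and -0.24 for 2S6S-HNK, CDK14 at 0.22 for 2R6R-HNK, and KCNAB3 gained a call for 2R6R-HNK (0.47, adjusted p = 0.00336 by edgeR). For KCNAB2, CDK18 and TNXB the same quantities, given without a test, were -1.26, -0.96 and -0.55 for ketamine, 1.12, 0.64 and 1.31 for 2R6R-HNK and -1.11, -1.08 and -0.61 for 2S6S-HNK. With the correction the last 3 were -0.49, -0.46 and 0.13, so that TNXB changed sign.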

How the results depend on the processing

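Halving the counts and fitting the replicate number as a replicate block left the direction and side of the threshold of all 150 single-gene values unchanged. Same-numbered libraries did not deviate together (r from -0.147 to 0.0874 over 28 pairs of conditions and 10701 genes). DESeq2 left 147 of 150, the fit to the groups compared only 147, no filter 149 and at least 10 counts in every library 148 as they were. Upper-quartile scaling raised the median of all genes by up to 0.10 (from -0.06 to 0.04 under E2+2S6S-HNK). It called 2 paralogs higher under ketamine and 1 lower under E2+2S6S-HNK, and the groups compared only also gave 1 lower there, as did the fit without E2+2S6S-HNK replicate 1 (1 to 2 over all libraries left out).

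The GC and length correction changed most, with and without the replicate block alike: 0 paralogs higher and 1 lower under E2, 2 higher under ketamine, 2 lower under 2R6R-HNK, 1 lower under 2S6S-HNK, 1 higher and 2 lower under E2+ketamine, and 4 higher and 1 lower under E2+2R6R-HNK. Every share of all genes called that is given in this text comes from the fit without this correction. The correction also called CDK14 higher under 2S6S-HNK (0.44). It turned CDK14 under E2 (0.081), 2R6R-HNK (0.13), E2+ketamine (0.031) and E2+2R6R-HNK (0.43), CDK17 under ketamine (0.025) and E2+2S6S-HNK (0.094), KCNAB1 under 2S6S-HNK (0.23), CDK16 under E2+2S6S-HNK (-0.076), and the interactions of CDK16 with 2R6R-HNK (0.044) and of TNC with 2S6S-HNK (0.13). Calls of interaction were lost in CDK17 with 2R6R-HNK (0.019) and, with 2S6S-HNK, in KCNAB3 (-0.13), KCNAB1 (0.26) and CDK14 (0.011). Between compounds it turned CDK17 for 2S6S-HNK against 2R6R-HNK (-0.021, and -0.022 with the replicate block), KCNAB3 for ketamine against 2R6R-HNK (0.060, and 0.061 with the replicate block), CDK14 for ketamine against 2S6S-HNK (-0.14), and KCNAB1 (-0.044) and TNXB (0.14) for E2+2S6S-HNK against E2+2R6R-HNK. The cause was not tested.

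Values near 0 also turned elsewhere. CDK16 under ketamine was 0.0020 without a filter, 0.0039 with at least 10 counts, 0.075 with upper-quartile scaling, 0.019 in the groups compared only and 0.020 with DESeq2, but -0.26 and called lower with the GC and length correction. CDK14 under E2+2R6R-HNK was 0.0037, 0.073, 0.010 and 0.018 with at least 10 counts, upper-quartile scaling, the groups compared only and DESeq2. KCNAB1 under 2S6S-HNK was 0.0061 with upper-quartile scaling. With each library left out in turn, CDK16 under ketamine ranged from -0.031 to 0.014, CDK14 from -0.041 to 0.062 under ketamine, -0.077 to 0.079 under 2S6S-HNK and -0.059 to 0.044 under E2+2R6R-HNK, and KCNAB1 from -0.26 to 0.10 under 2S6S-HNK and -0.023 to 0.14 under E2+2R6R-HNK. Between compounds the ranges were -0.047 to 0.086 (CDK17, 2S6S-HNK against 2R6R-HNK), -0.24 to 0.18 (KCNAB3, ketamine against 2R6R-HNK), -0.32 to 0.035 (KCNAB1) and -0.069 to 0.087 (CDK14, both ketamine against 2S6S-HNK), and, for E2+ketamine against ketamine, -0.28 to 0.14 (KCNAB3) and -0.18 to 0.10 (TNXB).

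For the related lists under 2S6S-HNK, alternatives chosen after seeing the data were run. The GC and length correction gave 4 other potassium subunits higher, 2 reductases higher and 2 lower, 2 other cyclin-dependent kinases higher, 1 other tenascin or receptor lower and 2 collagen matrix genes lower, and upper-quartile scaling gave 1 other potassium subunit lower. Low counts limit KCNA7, CYP21A2 and BLACAT1.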
